A study of Mus musculus with 57 samples.

Results

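The genes described here encode 45 proteins that hepatocytes, the main cell type of the liver, secrete into the blood plasma. They were chosen by symbol, each is represented by its most abundantly counted transcript, and all 45 were found among the 24941 gene symbols of the count table. By role they fall into 13 carriers of lipids, metals, hormones and vitamins, 6 apolipoproteins, 10 proteins of coagulation, fibrinolysis and the matrix, 12 protease inhibitors and related carriers, and 4 genes of the acute phase and of the iron hormone hepcidin. Liver macrophages were sorted from the same kind of organ, so the same 45 genes were followed as directly measured hepatocyte RNA in whole liver and as low-level RNA in each sorted library. In bulk libraries fewer cells of a type and less RNA per cell cannot be told apart, and RNA carried along from hepatocytes cannot be told apart from RNA made in the sorted cells by level alone.

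Plasma proteins are made by hepatocytes under a shared set of transcription factors, among them HNF4A, FOXA and C/EBP family members. During the acute phase, cytokines such as IL-6 and IL-1 act on hepatocytes through STAT3, C/EBP and NF-kB, and the genes of serum amyloid A, haptoglobin, the orosomucoids, fibrinogen and lipocalin 2 are induced. Hepcidin, the iron hormone encoded by Hamp, responds to IL-6 and to BMP6 signalling through hemojuvelin and transferrin receptor 2.

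The study profiled macrophages and whole liver of mice with NASH, a fatty and inflamed state of the liver, by sequencing polyadenylated RNA in 57 libraries of 16 groups. Whole liver was taken after 4 weeks of CDAHFD, a choline-deficient high-fat diet, from mice labelled Clec4f-cre DTR positive (n = 12) and Clec4f-cre DTR negative (n = 10), where Clec4f-Cre acts in Kupffer cells, the resident liver macrophages, and DTR is a receptor for diphtheria toxin. Kupffer-niche recruited macrophages (KN-RM, sorted as F4/80-high and Tim4-negative) came after 20 weeks of NASH diet from mice carrying floxed LXR alpha and LXR beta alleles, with (n = 3) or without (n = 3) Clec4f-Cre. In C57BL/6J mice, Kupffer cells (F4/80-high, Tim4-positive) were taken at week 0 (n = 3, control diet) and at weeks 1 (n = 2), 4 (n = 2), 10 (n = 3), 20 (n = 3) and 30 (n = 4) on NASH diet. A further set of sorted C57BL/6J cells held Ly6C-low recruited macrophages, Ly6C-high recruited macrophages, KN-RM and Kupffer cells of NASH mice, blood Ly6C-high monocytes of NASH mice, and Kupffer cells of healthy mice on control diet (n = 2 each). All liver cells were freed by perfusion and Liberase digestion with 1 µM flavopiridol, which blocks transcription, 2 slow centrifugations took out hepatocytes, and the labels do not say that replicates are separate animals, so the p-values below measure the spread between these samples.

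Total counts per library ran from 5389957 to 9941477 in whole liver, from 2319383 to 5086239 in the LXR set, from 10483452 to 26969509 in the diet time course and from 12368140 to 22707571 in the sorted set. Kupffer markers summed to 9844 to 22880 TPM in the Kupffer gates, 8053 to 9369 TPM in C57BL/6J KN-RM, 430 to 648 TPM in Ly6C-low cells, 345 to 392 TPM in Ly6C-high recruited cells and 130 to 151 TPM in blood monocytes. The labels of the targeted genes could not be checked from RNA, since Clec4f overlapped between livers labelled DTR positive (25.4 ± 16.5 TPM) and DTR negative (23.1 ± 22.1 TPM), and Nr1h3, which encodes LXR alpha, had 193, 422 and 294 TPM in KN-RM labelled Cre-positive, against 237, 274 and 300 TPM in those labelled Cre-negative. Timd4, the gene of the Tim4 surface marker, had 255 TPM in Cre-positive replicate 2 although the gate is Tim4-negative. Among the whole livers, DTR-positive replicates 1, 2 and 7 and DTR-negative replicate 2 stood apart on the first principal component of genes outside the plasma protein set, and the Saa1 and Saa2 differences and the median spread between livers are also given without these 4.

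In whole liver the 45 genes took 19.1% ± 3.26 of all counts in DTR-positive mice (SD, n = 12) and 19.0% in DTR-negative mice (n = 10). Alb, which encodes albumin, the main carrier of plasma, led with 42140 ± 14890 TPM (a level scaled to transcript length and library size) in DTR-positive livers and 39290 ± 7714 TPM in DTR-negative livers. It made up 31.0% of the summed TPM of the set in DTR-positive livers and 29.7% in DTR-negative livers. Apoa1, the main protein of high-density lipoprotein, followed with 10560 ± 2806 TPM in DTR-positive and 10060 ± 1587 TPM in DTR-negative livers, and Trf, the gene of the iron carrier transferrin, with 9827 ± 818 TPM in DTR-positive and 9832 ± 1269 TPM in DTR-negative livers. The carriers together held 58.0% of the summed TPM in DTR-positive livers and 57.5% in DTR-negative livers, whereas the acute phase and iron group held 1.2% in DTR-positive and 1.22% in DTR-negative livers. At the low end, F9, the gene of coagulation factor IX, had 117 ± 9.04 TPM in DTR-positive and 121 ± 13.2 TPM in DTR-negative livers. The map of group means sets these levels beside those of the sorted cells.

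**Figure D1:**
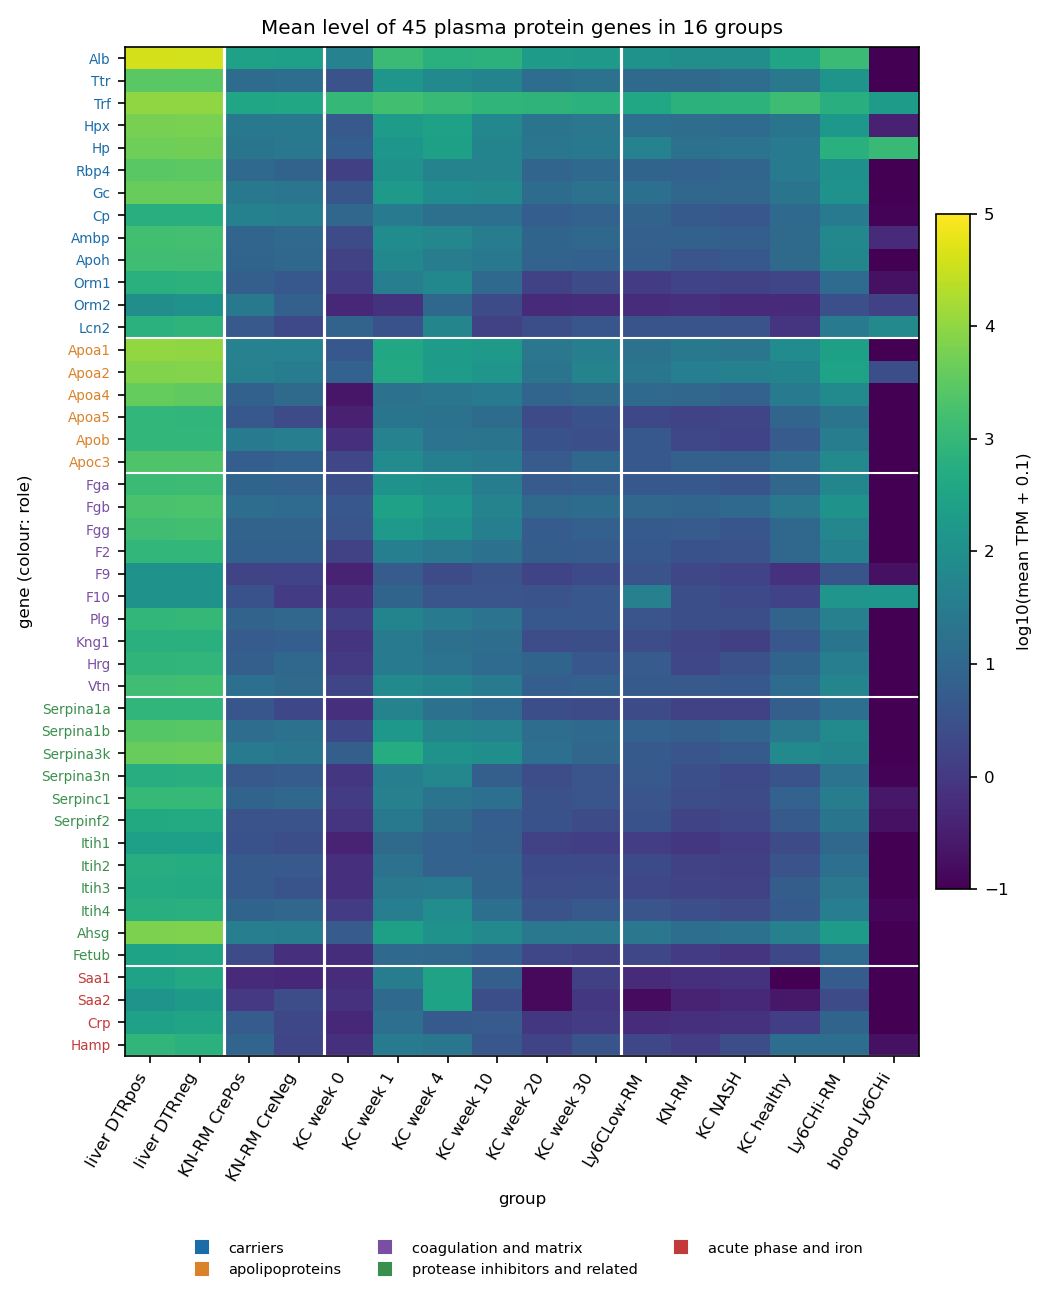
Mean level of each of the 45 genes (rows, coloured by role) in each of the 16 groups (columns), as log10 of mean TPM plus 0.1. Most genes are highest in whole liver, and 29 genes have 0 counts in both blood libraries. F10 lies above its whole-liver mean in Ly6C-high recruited macrophages and in blood monocytes. Saa2 lies above its own at week 4, owing to replicate 2 of that week.

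The comparison of livers labelled DTR positive with those labelled DTR negative is by genotype label alone, since the labels do not mention dosing with the toxin. None of the 45 genes passed the test (edgeR's quasi-likelihood test, Benjamini-Hochberg adjustment over 12682 genes), which called 0.0% of all genes. The median log2 difference of the 45 genes was -0.06, against 0.00 over all genes tested, and 4 genes had an unadjusted p under 0.05, as did 477 of all genes; DESeq2 and limma also called 0 genes. The acute phase gene Saa1, which encodes serum amyloid A1, had a lowest, median and highest level of 101.4, 328.2 and 444.4 TPM in DTR-positive livers and of 265.1, 404.3 and 723.4 TPM in DTR-negative livers. Its neighbour Saa2 had 48.1, 136.6 and 195.7 TPM in DTR-positive and 118.2, 175.2 and 342.4 TPM in DTR-negative livers. The groups overlapped for both genes, although the 3 summary levels were lower in DTR-positive livers. The log2 differences were -0.56 ± 0.18 (SE) for Saa1 and -0.62 ± 0.18 for Saa2, with an adjusted p of 0.9997 for each. Without the 4 livers that stood apart they were -0.43 for Saa1 and -0.52 for Saa2, with an adjusted p of 0.388 for each.

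The pentraxin gene Crp, which encodes C-reactive protein, averaged 276.3 ± 21.5 TPM in DTR-positive and 317.4 ± 30.1 TPM in DTR-negative livers (log2 -0.23 ± 0.09). Orm1, the gene of orosomucoid, a binder of basic drugs and an acute phase protein, averaged 635.8 ± 97.3 TPM in DTR-positive and 702.8 ± 93.7 TPM in DTR-negative livers (log2 -0.18 ± 0.07). Hp, the gene of haptoglobin, which binds free haemoglobin, averaged 4657 ± 585 TPM in DTR-positive and 5006 ± 339 TPM in DTR-negative livers. The groups overlapped for these 3 genes. Hamp averaged 887 ± 457 TPM in DTR-positive and 691 ± 401 TPM in DTR-negative livers, Lcn2, the gene of the iron-siderophore binder lipocalin 2, averaged 672 ± 347 TPM in DTR-positive and 807 ± 314 TPM in DTR-negative livers, and the copper carrier gene Cp (ceruloplasmin) 621 ± 116 TPM in DTR-positive and 622 ± 95.4 TPM in DTR-negative livers. The thyroxine carrier gene Ttr averaged 2852 ± 720 TPM in DTR-positive and 2989 ± 558 TPM in DTR-negative livers, again overlapping. Of the 28 pathway genes (liver transcription factors, acute phase cytokines with their receptors and signal carriers, and regulators of hepcidin), 0 of 26 tested were called, and Hnf4a averaged 205 TPM in DTR-positive livers against 232 TPM in DTR-negative livers.

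**Figure D2:**
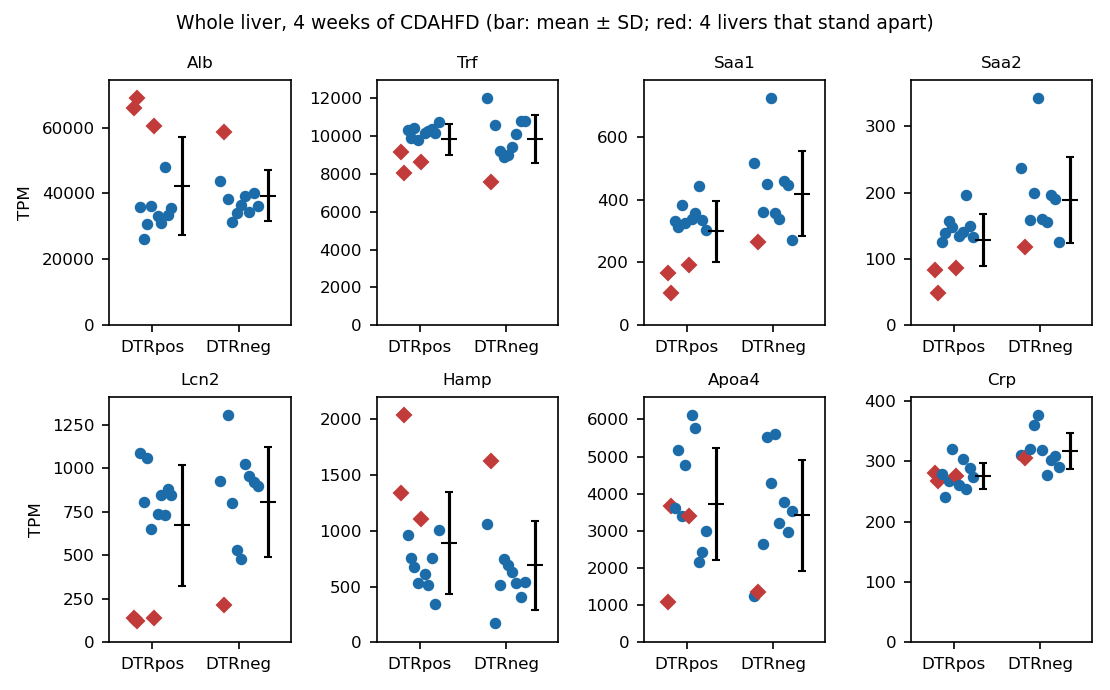
Levels (TPM) of 8 genes in the 22 whole livers, each dot 1 liver, DTR-positive left of DTR-negative, with bars for mean and SD and the 4 livers that stand apart in red. The groups overlap for every gene drawn, and the 4 red livers are the highest for Alb and the lowest for Lcn2.

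The spread between livers of 1 genotype differed among the genes. The coefficient of variation (CV, the SD as a percentage of the mean, averaged over both genotypes, on CPM scaled with TMM) had a median of 24.9% over the 45 genes, against 13.2% over the 8705 genes with a mean of at least 10 CPM. Without the 4 livers that stood apart the medians were 15.9% for the 45 genes and 11.2% for all genes. On TPM the median over the 45 genes was 15.5%, against 13.5% over all genes. Hamp was the most variable with a CV of 66.2%, followed by Serpina3k (43.6%), a kallikrein-binding serpin, Lcn2 (42.0%), Apoa4 (40.2%), an apolipoprotein of lipid-rich particles, and Serpina1b (38.7%), an alpha-1-antitrypsin. The lowest on this scale were Trf (8.17%), Cp (8.98%), Hp (9.08%), Gc (9.51%), the carrier of vitamin D, and Orm1 (11.2%). The order depended on the scale and on the livers kept, at both ends. On TPM Serpinc1 (6.54%), Ambp (6.82%), Gc (6.86%) and Apob (7.59%) were lowest and Cp had 17%. Without the 4 livers that stood apart Apob (6.36%) was lowest. Hamp stayed the most variable both ways. On TPM Lcn2 (45.3%), Apoa4 (41.9%) and Orm2 (33.8%) followed it. Without those 4 livers Apoa4 (36.8%), Saa2 (29.1%) and Saa1 (26.7%) followed it, and Lcn2 had 21.35%.

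The 4 livers that stood apart had 65961, 68949 and 60392 TPM of Alb (DTR-positive replicates 1, 2 and 7) and 58816 TPM (DTR-negative replicate 2), and the other 18 livers had 26081 to 48159 TPM. Their share of counts on the 45 genes was 22.9% to 25.0%. Their stellate cell markers summed to 215 to 342 TPM and their monocyte markers to 2.05 to 3.37 TPM. The part of these differences in the results was not tested, and with these livers left out none of the 45 genes was called between genotypes.

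Within the other 18 livers, each centred on its genotype group, Saa2 followed Saa1 closely, with Pearson's r of 0.98 and Spearman's rho of 0.89 (permutation p = 1e-05 for each, the smallest these permutations can give, adjusted p = 0.00044 over 44 relations). It kept r at 0.94 without the 2 livers farthest from the Saa1 median. By Pearson's r, 30 of the 44 other genes were called, all with a positive r, but by Spearman's rho only Saa2 was, and 17 of the 30 kept an r of at least 0.5 without those 2 livers. On log2(TPM + 1) only Saa2 was called. Serpina1b had r = 0.76 (permutation test, adjusted p = 0.0135) and rho = 0.49 (adjusted p = 0.32), and Ambp, the gene of the alpha-1-microglobulin precursor, r = 0.71 and rho = 0.42. Saa1 and Saa2 are near-identical neighbours on chromosome 7, and 14.8% of the 50-base stretches of the Saa1 transcript occur in other genes, so reads may be shared between them. The same holds for Serpina1a (67.4% of such stretches) and Serpina1b (35.8%), which share stretches with each other and with further genes of their family.

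In the sorted cells the 45 genes took far smaller shares of counts. The share was 0.187% at week 0 of the diet, 0.952% at week 1, 0.641% at week 4, 0.406% at week 10, 0.199% at week 20 and 0.198% at week 30 in Kupffer cells. It was 0.124% in Ly6C-low recruited macrophages, 0.664% in Ly6C-high recruited macrophages, 0.180% in KN-RM, 0.190% in NASH Kupffer cells, 0.168% in blood monocytes and 0.337% in healthy Kupffer cells. KN-RM of the LXR set had 0.141% with Clec4f-Cre and 0.141% without. Week 1 Kupffer cells and Ly6C-high recruited macrophages had the highest means among the sorted groups, as the plot of these shares shows.

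**Figure D3:**
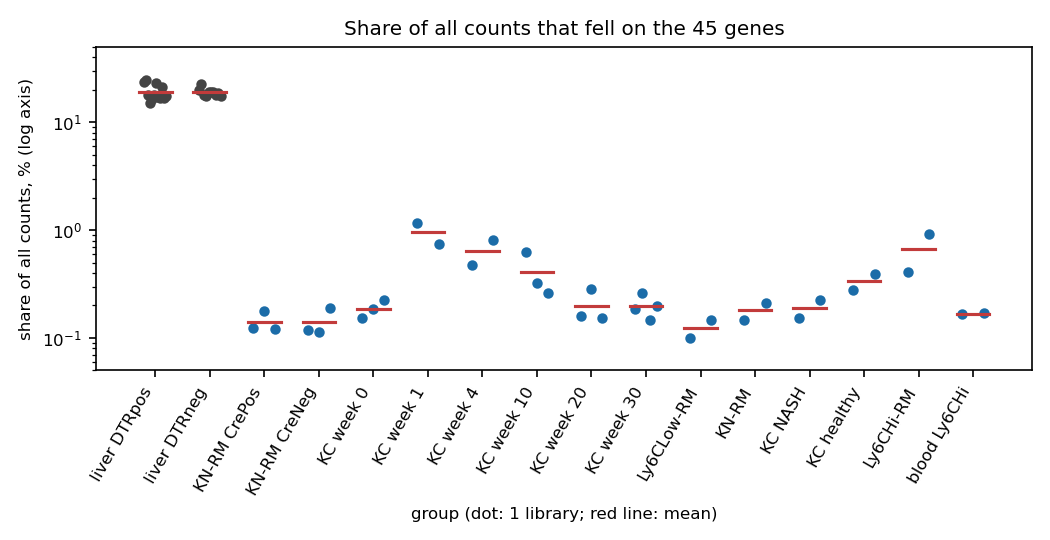
Share of all counts that fell on the 45 genes (percent, log axis) in each library (dots), with the mean of each group (red line). Whole livers lie near 19%, week 1 Kupffer cells at 1.16% and 0.740%, and the other sorted libraries between 0.0999% and 0.924%.

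The composition differed from that of whole liver. At week 0, Trf alone made up 87.0% of the summed TPM of the set and Alb 4.21%, whereas in DTR-negative whole liver Trf made up 7.55%. Trf had 786, 979 and 1242 TPM in week 0 Kupffer cells, or 10.2% of its mean in whole liver. Alb had 81.3, 34.6 and 19.0 TPM there, so that Trf was 92.7 times as high, on group means, as its whole-liver proportion to Alb would give, and 40.2, 118 and 272 times in the single libraries. Cp came next on group means (13.8 times), with 12.4, 15.8 and 16.2 times in the libraries. Lcn2 followed with 5.19, 8.21 and 34.0 times and the coagulation factor X gene F10 with 2.29, 4.13 and 11.6 times, in each case highest in the library with the least Alb. Here and below, the reference livers came from the DTR-labelled mice after 4 weeks of CDAHFD. The part of diet and genotype in this measure was not tested. Among the single reference livers Trf stood at 0.484 to 1.58 times. Of the Trf transcript, 79.8% of 50-base stretches are also in Gm20425, a read-through gene model, so the counts of the 2 cannot be told apart. Levels across the 45 genes were ranked much as in whole liver at weeks 10 to 30 (Spearman's rho of 0.94, 0.90 and 0.92 across genes, which are not independent) and less so at week 0 (0.73) and week 4 (0.66).

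The diet time course asked how Kupffer cells change as NASH develops, and all 5 comparisons share the same 3 week 0 libraries. At week 1, 42 of the 45 genes were higher than at week 0 and 0 were lower (edgeR's quasi-likelihood test, adjusted over 14552 genes), against 9.42% of all genes higher and 6.56% lower. The median log2 difference was 5.64 over the 45 genes and 0.00 over all genes. All 6 apolipoproteins, all 10 coagulation genes, all 12 inhibitors, 11 of 13 carriers and 3 of 4 acute phase and iron genes were higher. Beside them, 18 of 18 genes of intracellular hepatocyte enzymes and binding proteins (such as Cps1 and Fabp1) were higher too, 4 of 8 stellate markers were higher and 5 of 8 endothelial markers were lower. The labels say nothing of how completely hepatocytes were removed at each time, and the part of carried-along hepatocyte RNA in the result was not tested beyond that list.

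Alb had 1325 and 1078 TPM at week 1, against 81.3, 34.6 and 19.0 TPM at week 0 (log2 5.01 ± 0.84, adjusted p = 0.00067). Apoa1 had 483 and 281 TPM at week 1, against 6.08, 4.30 and 2.93 TPM at week 0 (log2 6.66 ± 0.68, adjusted p = 1.5e-05). The groups did not overlap for either gene, and every week 1 library was the higher. The largest rise was that of Apoa4, with 18.3 and 15.5 TPM at week 1, against 0.175, 0.104 and 0.099 TPM at week 0 (log2 7.21 ± 0.59). Rbp4, the gene of the vitamin A carrier, rose by log2 6.67 ± 0.63, Apob, the structural protein of low-density lipoprotein, by 6.64 ± 0.99, Serpina1b by 6.62 ± 0.68 and Serpina3k by 6.57 ± 0.93. Among the fixed genes of the list, Ttr rose by 5.62 ± 0.75, Orm1 by 5.34 ± 0.83, Hp by 4.77 ± 0.72, Hamp by 5.95 ± 0.96, Saa1 by 6.38 ± 1.46 and Cp by 1.89 ± 0.53. Saa2 (17.4 and 4.51 TPM, against 1.21, 0.285 and 0.409 TPM), Lcn2 (5.81 and 0.632 TPM, against 7.58, 5.09 and 11.6 TPM) and Orm2 were not called.

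Trf changed far less than most of the other genes called at week 1. It had 1558 and 1436 TPM at week 1, against 786, 979 and 1242 TPM at week 0 (log2 0.79 ± 0.25, adjusted p = 0.0385), and the call was lost when only these groups were fitted (adjusted p = 0.0865), with limma on the deposited TPM (0.1), without week 0 replicate 1 (0.124) or 2 (0.0839) and without week 1 replicate 1 (0.196) or 2 (0.114). At weeks 4, 10, 20 and 30 it was not called, with log2 differences of 0.40, -0.23, -0.12 and -0.29. Since most other genes of the set were higher at week 1, the part of Trf in the summed TPM was 23.1% at week 1, against 87.0% at week 0.

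**Figure D4:**
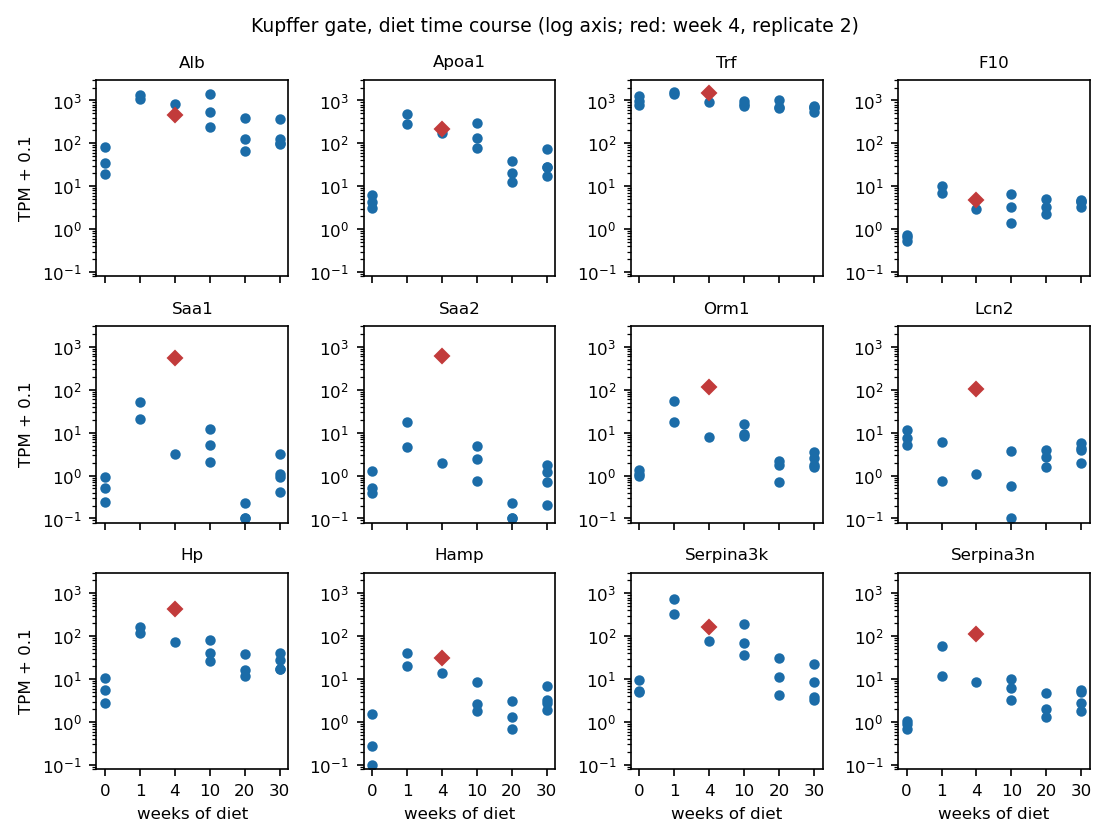
Levels (TPM plus 0.1, log axis) of 12 genes in Kupffer cells by weeks of diet, each dot 1 library, with replicate 2 of week 4 in red. Alb and Apoa1 have their lowest libraries at week 0, Trf lies between 533 and 1558 TPM throughout, and the red library has 566 TPM of Saa1 while its partner has 3.05 TPM.

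The excess over week 0 was smaller at the later times for most genes. Genes called higher numbered 42 at week 4, 39 at week 10, 30 at week 20 and 32 at week 30, with 0 lower at each, against 8.54%, 19.1%, 34.7% and 30.5% of all genes called, of which 5.55%, 11.5%, 18.2% and 15.5% were higher and 2.99%, 7.63%, 16.6% and 15.0% lower. The median log2 difference of the 45 genes was 4.85 at week 4, 3.82 at week 10, 2.11 at week 20 and 2.38 at week 30. The 6 apolipoproteins were called at every time, and Apoa4 was the gene with the largest difference at weeks 10, 20 and 30 (log2 7.83 ± 0.58, 6.31 ± 0.58 and 6.73 ± 0.56). The acute phase and iron group was called in 4 of 4 genes at week 4, 2 at week 10, 0 at week 20 and 1 (Hamp) at week 30. Intracellular hepatocyte genes were higher in 14 of 18 at week 4, 16 at week 10, 5 at week 20 and 8 at week 30. At weeks 4 to 30, 5 of 8 stellate markers were higher at each time, 5 of 7 Kupffer markers were lower at week 20 and 4 at week 30, and 5 of 8 endothelial markers were lower at both of those times; their part in the result was not tested.

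Albumin shows the course in single libraries. Alb had 825 and 451 TPM at week 4, 1402, 544 and 243 TPM at week 10, 126, 396 and 66.0 TPM at week 20, and 95.7, 365, 101 and 126 TPM at week 30. The differences from week 0 were called at each time, with log2 4.04 ± 0.81, 4.07 ± 0.78, 2.40 ± 0.73 and 2.29 ± 0.70 (adjusted p = 0.00493, 0.00247, 0.018 and 0.0202). At week 20 the library with 66.0 TPM lay below the highest week 0 library. Single libraries decided many of the late calls. The number of genes called at week 20 was 8 without week 20 replicate 2 (26.8% of all genes), 14 without week 0 replicate 2 (26.4%) and 13 without week 0 replicate 3 (27.5%). At week 30 it was 18 without week 30 replicate 2 (24.9% of all genes), 18 without week 0 replicate 2 (25.6%) and 17 without week 0 replicate 3 (23.4%).

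F10 and F9 kept a small but even excess at the late times. F10, the gene of coagulation factor X, had 2.12, 3.25 and 4.83 TPM at week 20 and 4.5, 3.21, 4.11 and 4.63 TPM at week 30, against 0.543, 0.417 and 0.644 TPM at week 0 (log2 2.92 ± 0.47 and 3.24 ± 0.46, adjusted p = 0.000234 and 7.2e-05). F9 averaged 1.63 ± 0.088 TPM at week 20 and 2.12 ± 0.56 TPM at week 30, against 0.267 ± 0.10 TPM at week 0 (log2 2.86 ± 0.41 and 3.29 ± 0.40). No late library of either gene overlapped with week 0, at levels of a few TPM. Relative to whole liver, F10 at week 30 stood at 3.45% of its liver mean and F9 at 1.78%, against 0.421% for Alb. By the measure set to Alb, Trf (16.1 times), F10 (8.20 times) and F9 (4.24 times) led at week 30 on group means. In week 30 replicate 2, which held 365 TPM of Alb, they stood at 7.53, 3.01 and 1.30 times.

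Of the fixed genes, Ttr rose at week 10 by log2 4.00, at week 20 by 2.45 and at week 30 by 2.80. Apoa1 rose by 5.62 at week 4, 5.27 at week 10, 2.68 at week 20 and 3.39 at week 30, and Hp by 5.50, 3.04, 2.11 and 2.38 at the same times. Orm1 rose at weeks 4 (6.06) and 10 (3.45) and was not called at weeks 20 and 30 (0.77 and 1.44). Hamp rose by 5.48 at week 4, 2.92 at week 10 and 2.99 at week 30. Lcn2 and Cp were not called at weeks 4 to 30. Saa1 had 1 count in the 3 week 20 libraries together, against 11 counts at week 0 (ratio of levels 0.0929, 95% interval 0.00216 to 0.639 by counting error alone), and Saa2 1 count, against 15 (0.0681, 0.00162 to 0.443).

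Week 4 held a library that differed from its partner in the acute phase genes. Replicate 2 had 566 TPM of Saa1 and 605 TPM of Saa2, whereas replicate 1 had 3.05 TPM and 1.83 TPM. The Saa2 level of replicate 2 lay above the highest whole liver (342.4 TPM). Lcn2 had 105 TPM in replicate 2 and 1.02 TPM in replicate 1, Orm2 20.3 and 0.320 TPM, Orm1 118 and 7.96 TPM, and Serpina3n, an acute phase serpin, 111 and 8.39 TPM. The heme carrier gene Hpx had 480 TPM in replicate 2 and 72.7 TPM in replicate 1, and the fibrinogen beta chain gene Fgb 229 and 51.5 TPM. In all, 13 of the 45 genes were over 4-fold higher in replicate 2 and 8 were lower, Alb lowest of these with a ratio of 0.546. The median ratio was 1.53. Socs3, a feedback inhibitor of IL-6 signalling, had 16.2 TPM in replicate 2 and 3.07 TPM in replicate 1.

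The week 4 calls of Saa1, Saa2 and Orm2 rest on that library, and the difference of Serpina3n was smaller without it. Saa1 rose by log2 9.31 ± 1.49 (adjusted p = 0.00124) and Saa2 by 8.97 ± 1.48 with both libraries, but by 2.83 (adjusted p = 0.23) and 1.69 (adjusted p = 0.57) without replicate 2. Serpina3n rose by 6.39 with both and by 3.59 (adjusted p = 0.022) without it. Orm2 rose by 4.85 (adjusted p = 0.021) with both, and its difference was -0.07 (adjusted p = 0.996) without it. Leaving out either replicate leaves a single library at week 4, so no count of calls is given for those fits.

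The upstream sequences of these genes are shown because their levels differed together in that library. The table of RefSeq promoters (build GRCm38.p6) held 37 of the 45 genes, and the 250 bases before the start site are printed 5′ to 3′ on the strand of the gene, with matches to a searched motif in capitals. Saa1 (chr7:46742981-46743230, minus strand) and Saa2 (chr7:46751583-46751832, plus strand) each hold 1 match to the C/EBP letters, Serpina3n (chr12:104406458-104406707, plus strand) 1 match to the NF-kB letters and Lcn2 (chr2:32387740-32387989, minus strand) 1 match to the C/EBP letters. Alb (chr5:90460620-90460869, plus strand), which was not higher in that library, also holds 1 match to the C/EBP letters, on the other strand.
Saa1: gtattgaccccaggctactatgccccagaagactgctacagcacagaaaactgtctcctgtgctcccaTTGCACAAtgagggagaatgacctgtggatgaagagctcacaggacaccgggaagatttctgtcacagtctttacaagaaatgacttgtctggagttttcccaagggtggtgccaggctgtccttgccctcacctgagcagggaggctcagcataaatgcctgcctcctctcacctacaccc
Saa2: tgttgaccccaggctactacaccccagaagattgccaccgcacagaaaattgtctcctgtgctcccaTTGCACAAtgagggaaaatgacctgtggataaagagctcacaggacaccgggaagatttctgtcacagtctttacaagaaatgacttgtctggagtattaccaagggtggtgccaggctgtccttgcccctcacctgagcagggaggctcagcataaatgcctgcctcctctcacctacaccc
Serpina3n: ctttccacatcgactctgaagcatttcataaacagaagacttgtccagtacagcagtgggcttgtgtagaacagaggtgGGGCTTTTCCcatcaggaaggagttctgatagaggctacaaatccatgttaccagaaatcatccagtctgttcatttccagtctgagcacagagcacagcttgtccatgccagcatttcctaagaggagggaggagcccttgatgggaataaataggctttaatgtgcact
Lcn2: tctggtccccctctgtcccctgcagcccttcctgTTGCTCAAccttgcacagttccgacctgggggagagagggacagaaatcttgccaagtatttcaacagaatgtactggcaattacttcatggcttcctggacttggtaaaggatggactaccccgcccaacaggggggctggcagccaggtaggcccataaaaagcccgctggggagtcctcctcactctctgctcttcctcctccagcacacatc
Alb: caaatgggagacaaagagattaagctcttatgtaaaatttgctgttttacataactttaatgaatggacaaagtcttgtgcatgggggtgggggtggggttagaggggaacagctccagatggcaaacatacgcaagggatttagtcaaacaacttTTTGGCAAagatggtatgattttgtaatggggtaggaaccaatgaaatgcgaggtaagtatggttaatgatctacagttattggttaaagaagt
The letters searched, on both strands and over 300 bases (250 before and 50 after the start), were TTGCNNAA for C/EBP, TTCNNNGAA for STAT3, CAAAGTCCA for HNF4, and longer letters for NF-kB, where N is any base, and no match overlapped another in the sequences shown. The C/EBP letters were in 19 of the 37 genes (51.4%), against 12.2% of 27025 genes with a promoter entry. The STAT3 letters were in 6 (16.2%, among them Hamp, Fga, Fgb and Itih4), against 9.55%. The NF-kB letters were in 2 (Fetub and Serpina3n, 5.41%), against 1.89%, and the HNF4 letters in 0, against 0.555%. Saa1 and Saa2 were identical at 238 of 251 aligned positions (94.8%) of the stretches shown, with the matched letters 182 and 183 bases before the start. A match is a description of the letters and not a binding site.

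The sorted set compared Kupffer cells of NASH mice with those of healthy mice. In it 3 of 44 genes tested were called (edgeR's quasi-likelihood test, adjusted over 14407 genes), 2 higher and 1 lower, against 20.7% of all genes called, 11.2% higher and 9.56% lower, and 8 had an unadjusted p under 0.05. The median log2 difference was -1.10, against 0.00 over all genes, and 39 of 44 genes had a negative difference. Serpina3k had 4.09 and 5.74 TPM in NASH and 45.8 and 92.7 TPM in healthy Kupffer cells (log2 -3.59 ± 0.45, adjusted p = 0.000579). Lcn2 had 2.54 and 3.97 TPM in NASH and 0.764 and 0.696 TPM in healthy cells (log2 2.36 ± 0.47, adjusted p = 0.00638), and F9 1.10 and 1.89 TPM in NASH and 0.533 and 0.719 TPM in healthy cells (log2 1.48 ± 0.47, adjusted p = 0.0453). The groups did not overlap for these 3 genes. Without NASH Kupffer replicate 2 only Serpina3k was called, with 5.65% of all genes called, and the call of F9 was also lost without either healthy replicate and with these groups fitted alone. Levels differed between libraries of 1 group: replicate 2 was the higher for 44 of 45 genes in NASH Kupffer cells, 41 in healthy Kupffer cells, 45 in KN-RM, 43 in Ly6C-low and 44 in Ly6C-high recruited cells.

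Of the fixed genes Lcn2 was called in NASH against healthy Kupffer cells, and Alb, Ttr, Apoa1, Hp, Orm1, Hamp and Cp had lower fitted levels in NASH that were not called. At week 30 of the time course Alb, Ttr, Apoa1, Hp and Hamp were called higher than at week 0. Alb had 44.2 and 143 TPM in NASH and 270 and 375 TPM in healthy Kupffer cells (log2 -1.56 ± 0.78, adjusted p = 0.185). Apoa1 had 12.3 and 34.1 TPM in NASH and 61.8 and 95.5 TPM in healthy cells (log2 -1.52 ± 0.69, adjusted p = 0.148), Hamp 0 and 5.06 TPM in NASH and 8.25 and 21.3 TPM in healthy cells, and Cp 3.84 and 4.62 TPM in NASH and 15.2 and 7.01 TPM in healthy cells. Ttr (log2 -0.66), Hp (-0.41) and Orm1 (-0.03) were not called. Saa1 had 0 and 10 counts in the NASH libraries and 0 in both healthy libraries, so its signal came from NASH replicate 2 alone. In the same comparison 5 of 18 intracellular hepatocyte genes were lower and 0 higher, and 6 of 8 endothelial markers and 2 of 3 erythroid markers were lower, while 5 of 6 T and NK cell markers and 3 of 5 cholangiocyte markers were higher. In a joint fit of both sets (29 libraries, 15102 genes, 2.53% called), the diet difference was lower in the sorted set than at week 30 for 8 genes (Apoa1, Apoa4, Apoa5, Apoc3, Rbp4, Serpina1a, Serpina1b and Serpina3k). Serpina1a and Serpina1b may share reads, so they may not be separate results. Control-diet Kupffer cells had 270 and 375 TPM of Alb in the sorted set and 19.0 to 81.3 TPM in the time course, and the labels give no number of diet weeks for the sorted set, so diet time and set cannot be told apart.

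The comparison of KN-RM with NASH Kupffer cells found 0 of 44 genes called, against 0.534% of all genes (0.333% higher and 0.201% lower), with 0 of 44 at an unadjusted p under 0.05, as against 1311 of all genes; DESeq2 and limma also called 0 of the 44. The median log2 difference was -0.14, against 0.01 over all genes. Alb had 34.4 and 146 TPM in KN-RM and 44.2 and 143 TPM in Kupffer cells, and Trf 694 and 737 TPM in KN-RM and 699 and 816 TPM in Kupffer cells. Ttr averaged 11.9 ± 11.3 TPM in KN-RM and 13.6 ± 10.4 TPM in Kupffer cells, Apoa1 26.4 ± 23.9 TPM in KN-RM and 23.2 ± 15.4 TPM in Kupffer cells, Hp 17 ± 14.3 TPM in KN-RM and 18.9 ± 13.0 TPM in Kupffer cells, and Cp 4.77 ± 2.90 TPM in KN-RM and 4.23 ± 0.55 TPM in Kupffer cells. The groups overlapped for each of these. F10 had 2.11 and 3.08 TPM in KN-RM and 1.18 and 2.73 TPM in Kupffer cells. On group means Trf, F10, F9 and Cp led the measure set to Alb in both gates, but its values differed between libraries as Alb did. Trf stood at 83.8 and 21.0 times in the KN-RM libraries and 65.8 and 23.7 times in the Kupffer libraries, and F10 at 21.1 and 7.22 times in KN-RM and 9.18 and 6.55 times in Kupffer cells.

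Ly6C-low recruited macrophages differed from KN-RM in 2 genes of the set, F10 higher and Trf lower, against 33.3% of all genes called, 15.3% higher and 18.1% lower, with a median log2 difference of 0.02 over the set and -0.01 over all genes. F10 had 30.4 and 49.5 TPM in Ly6C-low cells and 2.11 and 3.08 TPM in KN-RM (log2 3.61 ± 0.38, adjusted p = 4.1e-05). Trf had 392 and 384 TPM in Ly6C-low cells and 694 and 737 TPM in KN-RM (log2 -1.22 ± 0.30, adjusted p = 0.00911), a call lost without Ly6C-low replicate 2 (adjusted p = 0.0506). The groups did not overlap for either gene. Hp had 31.1 and 62.6 TPM in Ly6C-low cells and 6.91 and 27.1 TPM in KN-RM (log2 1.13, adjusted p = 0.154), without overlap. By edgeR's test it was called without the count filter (adjusted p = 0.0252). It was also called with the replicate number as a block (log2 1.22, adjusted p = 0.0297), though the labels do not say that these numbers pair samples. The log2 difference was 2.41 without KN-RM replicate 2 and 0.46 without KN-RM replicate 1. Alb averaged 115 ± 77.7 TPM in Ly6C-low cells and 90.3 ± 79.0 TPM in KN-RM, and Apoa1 16.9 ± 6.82 TPM in Ly6C-low cells and 26.4 ± 23.9 TPM in KN-RM. Both overlapped, as did Ttr, Lcn2, Orm1, Saa1, Hamp and Cp. Beside these, 5 of 7 Kupffer and 5 of 8 neutrophil markers tested were lower and 6 of 8 endothelial markers higher. Leaving out a library of either group leaves a single one there, so the counts of calls of those fits are not given. Of the pathway genes Stat3, Socs3, Il6st, which encodes the shared receptor chain of IL-6 cytokines, and Bmp6 were higher (log2 0.76, 2.06, 1.43 and 1.56) and Cebpa, Cebpb, Cebpd and Id1 lower.

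Nearly every gene of the set was lower in Ly6C-low than in Ly6C-high recruited macrophages. In Ly6C-low against Ly6C-high recruited cells, 40 of 44 genes tested were lower and 0 higher, against 25.7% of all genes called, 11.6% higher and 14.0% lower, with a median log2 difference of -3.29 over the set and -0.03 over all genes. Alb had 60.4 and 170 TPM in Ly6C-low cells and 627 and 1807 TPM in Ly6C-high cells (log2 -3.47 ± 0.83, adjusted p = 0.0133). Hp had 31.1 and 62.6 TPM in Ly6C-low cells and 538 and 730 TPM in Ly6C-high cells (log2 -3.83 ± 0.60, adjusted p = 0.00115), Lcn2 3.46 and 3.62 TPM in Ly6C-low cells and 22 and 38.0 TPM in Ly6C-high cells (log2 -3.14 ± 0.33, adjusted p = 9.9e-05), and F10 30.4 and 49.5 TPM in Ly6C-low cells and 139 and 124 TPM in Ly6C-high cells (log2 -1.77 ± 0.32, adjusted p = 0.00282). The groups did not overlap for any of these. The largest differences were those of Crp (-4.29), Apoa1 (-4.05), Apoc3 (-4.03), an inhibitor of lipoprotein lipase, Itih3 (-3.87), Apoa2 (-3.83) and Hp. Ttr (-3.50), Cp (-1.94) and Orm1 (-3.72) were lower too, while Saa1, Hamp, Trf and F9 were not called.

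Beside these genes, 18 of 18 intracellular hepatocyte genes were lower in Ly6C-low than in Ly6C-high cells, as were 3 of 8 stellate, 4 of 8 endothelial, 7 of 8 neutrophil and 4 of 4 monocyte markers tested, and Hnf4a, the hepatocyte regulator, had 1.82 TPM in Ly6C-low cells on average and 8.89 TPM in Ly6C-high cells. Stellate markers summed to 105 to 157 TPM in Ly6C-low and 317 to 338 TPM in Ly6C-high cells, and neutrophil markers to 12 to 17.9 TPM in Ly6C-low and 78.9 to 92.0 TPM in Ly6C-high cells. Their part in the result was not tested. The number of genes called was 11 without Ly6C-high replicate 2, which held 1807 TPM of Alb, with 11% of all genes called, and 10 without Ly6C-low replicate 1, with 10.8% of all genes called.

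Blood Ly6C-high monocytes had no counts for most of the set. Of the 45 genes, 29 had 0 counts in both blood libraries together, among them Alb, Ttr, Apoa1, Apob and Saa1. Those with the highest levels were Hp (1123 and 1056 TPM), Trf (138 and 266 TPM), F10 (152 and 138 TPM) and Lcn2 (76.2 and 57.8 TPM). Hp made up 72.2% of the summed TPM of the set, Trf 13.3%, F10 9.63% and Lcn2 4.45%. The F10 level was 122% of the mean of whole liver and that of Hp 22.6%. Intracellular hepatocyte genes summed to 0.0389% of their whole-liver level in blood monocytes, against 0.153% in week 0 Kupffer cells.

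Ly6C-high recruited macrophages were set against these blood monocytes, the circulating form of this lineage. In the recruited cells 40 of 44 genes tested were higher and 1 was lower, against 48.6% of all genes called, 27.3% higher and 21.3% lower. Of the 44 genes, 28 had 0 counts in both blood libraries and passed the count filter through other groups alone. Their direction was thus fixed in advance, and the count of calls is a description only. With genes at 0 in blood set to 3 counts in all, the median ratio of the 44 genes was at least 497-fold. Alb was at least 19110-fold higher (627 and 1807 TPM in recruited cells and 0 and 0 TPM in blood), Apob at least 3749-fold, Ahsg, the gene of the mineral binder fetuin-A, at least 2395-fold, Apoa1 at least 1985-fold, Gc at least 1658-fold and Ttr at least 1160-fold. Saa1 was at least 26.3-fold higher. Cp had 2 counts in blood (ratio 1328, 95% interval 367 to 10970), Orm1 2 counts (ratio 109, interval 29.9 to 909) and Hamp 1 count (ratio 140, interval 24.7 to 5558).

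Lcn2, Hp, F10 and Trf are given separately because of their levels in blood. Lcn2 had 22 and 38.0 TPM in recruited cells and 76.2 and 57.8 TPM in blood (log2 -1.2 ± 0.29, adjusted p = 0.00525). Hp had 538 and 730 TPM in recruited cells and 1123 and 1056 TPM in blood, without overlap but not called (log2 -0.82, adjusted p = 0.226), and called with these groups fitted alone (adjusted p = 0.0085). F10 had 139 and 124 TPM in recruited cells and 152 and 138 TPM in blood (log2 -0.19 ± 0.31, adjusted p = 0.636), and its levels overlapped. Trf had 476 and 776 TPM in recruited cells and 138 and 266 TPM in blood (log2 1.59 ± 0.30, adjusted p = 0.00129). In the recruited cells 17 of 18 intracellular hepatocyte genes were higher than in blood, as were 7 of 8 endothelial and 8 of 8 stellate markers.

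**Figure D5:**
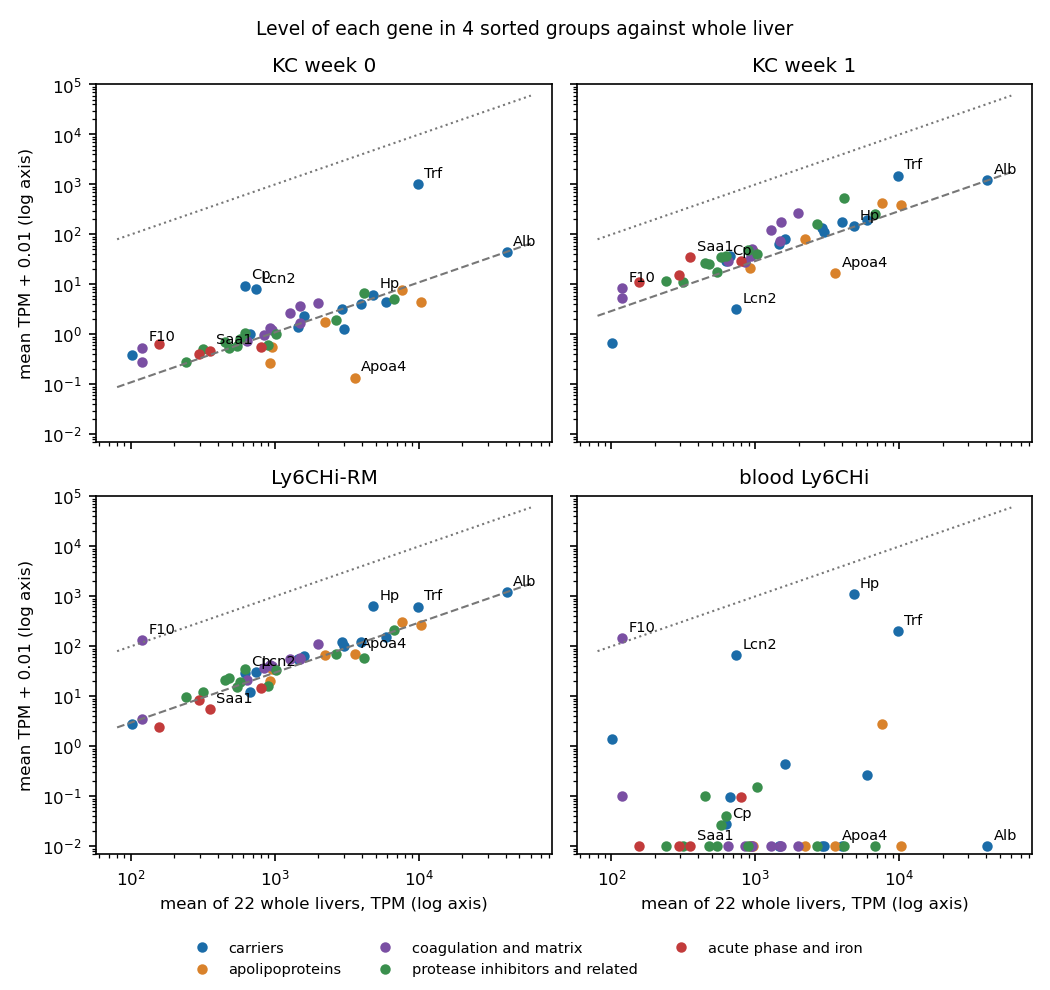
Mean level of each gene in 4 sorted groups (TPM plus 0.01, log axis) against its mean in the 22 whole livers (TPM, log axis), coloured by role. The dotted line marks equal levels and the dashed line the ratio of Alb. F10 lies on or above the dotted line in Ly6C-high recruited and blood cells, and Trf lies above the dashed line in each panel that has one.

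By the measure set to Alb, F10 led in recruited cells, with 173 and 99.7 times in the Ly6C-low libraries and 76.0 and 23.4 times in the Ly6C-high libraries. Trf (27.0 and 9.38 times) and F9 (16.7 and 7.32 times) followed in Ly6C-low cells, and Hp (7.28 and 3.43 times) and Trf (3.16 and 1.78 times) in Ly6C-high cells. Trf led in healthy Kupffer cells (17.3 times). With Trf, F10, F9, Hp, Lcn2 and Cp left out, a choice made after their values were seen, the other 39 genes summed to 0.1% of their whole-liver level at week 0, 4.37% at week 1, 0.431% at week 30, 0.298% in Ly6C-low cells, 3.10% in Ly6C-high cells, 0.265% in KN-RM, 0.275% in NASH Kupffer cells, 0.784% in healthy Kupffer cells and 0.00452% in blood. The intracellular hepatocyte genes, which the set does not hold, summed to 0.153%, 4.33%, 0.440%, 0.412%, 3.27%, 0.313%, 0.370%, 0.808% and 0.0389% of their whole-liver level in these groups.

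Some regulators of the set differed in the Kupffer gate, and the part of carried-along hepatocyte RNA in these differences was not tested. The intracellular hepatocyte genes summed to 4.33% of their whole-liver level at week 1 and to 0.153% at week 0. Of the 28 pathway genes, 8 were higher and 2 lower at week 1, among them Hnf4a with 8.86 TPM at week 1 against 0.541 TPM at week 0 (log2 4.25), and the hepcidin regulators Tmprss6 (5.99), Tfr2 (5.53) and Hfe2 (5.43). Hnf4a was higher at weeks 4, 10, 20 and 30 too (log2 3.38, 2.75, 1.98 and 1.89). At week 30, Il6 (log2 -3.58), Il1b (-1.62), Bmp6 (-1.65) and Cebpd (-1.28) were lower and Il1rn, the gene of the IL-1 receptor antagonist (2.72), and Osm (2.48) higher. Against healthy Kupffer cells, NASH Kupffer cells of the sorted set had lower Il6 (-3.71), Il1b (-2.15), Bmp6 (-1.58), Il6st (-0.67) and Il6ra (-0.42) and higher Osm (4.30), Il1rn (2.04) and Cebpa (0.91).

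The LXR set compared KN-RM labelled Clec4f-Cre positive and negative, both with floxed LXR alpha and LXR beta alleles, after 20 weeks. The comparison is by genotype label alone, since loss of these receptors could not be checked from RNA. Monocyte markers summed to 134, 81.1 and 99.8 TPM in Cre-positive and 28.1, 13.5 and 24.9 TPM in Cre-negative libraries, without overlap. Kupffer markers summed to 1788, 8112 and 4497 TPM in Cre-positive and 3081, 4142 and 3467 TPM in Cre-negative libraries. These Kupffer sums overlapped, as did those of the other cell type lists, and their part in the result was not tested. None of the 37 genes tested was called (edgeR's quasi-likelihood test), against 0.209% of all genes (0.174% higher and 0.0348% lower), 1 had an unadjusted p under 0.05, as did 947 of all genes, and DESeq2 and limma called 0 of the set. The median log2 difference was 0.05, against -0.01 over all genes. Alb had 178, 388 and 258 TPM in Cre-positive and 197, 169 and 381 TPM in Cre-negative cells (log2 0.15 ± 0.36), and Trf 279, 426 and 351 TPM in Cre-positive and 245, 477 and 428 TPM in Cre-negative cells. Both overlapped widely. Orm2, the other orosomucoid gene of the set, had 25.8, 14.7 and 38.5 TPM in Cre-positive and 0, 4.70 and 16 TPM in Cre-negative cells (log2 1.86 ± 0.82, adjusted p = 0.599), with overlap between the lowest of the Cre-positive and the highest of the Cre-negative libraries. Hamp had 12.3, 5.44 and 9.19 TPM in Cre-positive and 0, 1.12 and 3.82 TPM in Cre-negative cells, from 20 and 4 counts in all, without overlap, and was under the count filter, as were Saa1, Saa2, Orm1, Lcn2, F9, F10 and Fetub. Ttr, Apoa1, Hp and Cp had log2 differences of -0.17, 0.06, -0.28 and 0.22. Relative to Alb, Cp stood at 27.1, 4.86 and 7.38 times its whole-liver proportion in Cre-positive and 13.0, 15.1 and 5.29 times in Cre-negative libraries, and Orm2 at 58.4, 15.3 and 60.3 times in Cre-positive and 0, 11.2 and 17 times in Cre-negative libraries.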

How the data were processed

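Polyadenylated RNA of 57 libraries in 16 groups was analysed. Raw counts per transcript and TPM were deposited, and per the file headers the authors made both with HOMER's analyzeRepeats.pl over exons of the mm10 transcripts. The deposited counts are whole and not normalized, and the deposited TPM are scaled to transcript length and library. STAR, HOMER, DESeq2 and the mm10 (GRCm38) build are named per the submitters' processing notes, while versions, strand settings and read filters are not given in the sources used here. Each of 24941 symbols was represented by its most counted transcript, which discards reads of other transcripts (18 of the 45 genes have more than 1).

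The main test was edgeR 4.0.16's quasi-likelihood test (R 4.3.3, filterByExpr with a minimum count of 10 and a minimum total of 15, TMM scaling, Benjamini-Hochberg adjustment over all genes tested, threshold 0.05). It was fitted separately within whole liver, the LXR set, the time course and the sorted set, and was tested on simulated data. Alternatives used DESeq2 1.42.0 and limma 3.58.1 on log2(TPM + 1) or log2(TPM + 0.1). The 45 genes and all lists were chosen with earlier results of these data known. Genes named in each comparison were 10 fixed genes, those called (beyond 12, the 6 largest per direction) and the 6 standing highest against whole liver relative to Alb. No pair of libraries was a duplicate within sampling noise (140 pairs). Intervals and floors cover counting error only, and the total counts of each library, given with the results, set the precision. One transcription factor and its motif are not reported here.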

Additional observations from a re-analysis of the deposited data

Results flagged for a closer look

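Among 22 checks for a library far from the rest of its group, 4 were met, where chance gives about 1 in 20. Alb had 58820 TPM in DTR-negative liver replicate 2, against 43730 TPM in the next highest DTR-negative liver. The share of counts on the 45 genes was 22.92% in that liver, against 20.06% in the next of its group. That liver is 1 of the 4 that stood apart, and Alb is part of the share, so these checks are not independent. Saa2 had 342.4 TPM in DTR-negative liver replicate 5, against 236.8 TPM in the next of its group. Alb had 365.2 TPM in replicate 2 of week 30, against 126.1 TPM in the next highest library.

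The difference between control and NASH diet was itself different between the sorted set and week 30 of the time course for 8 genes, by an edgeR quasi-likelihood contrast of both differences that was added after seeing the data. The diet difference of the sorted set minus that of week 30 was -4.87 (log2) for Apoa1 (adjusted p = 0.0146), -8.35 for Apoa4 (0.000637), -6.00 for Apoa5 (0.0169), -3.67 for Apoc3 (0.0458), -4.79 for Rbp4 (0.0104), -4.125 for Serpina1a (0.0453), -4.03 for Serpina1b (0.0365) and -4.40 for Serpina3k (0.0421). Each set has its own control-diet libraries, and set and diet time cannot be told apart. Reads may be shared between Serpina1a and Serpina1b.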

How the results depend on the processing

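Of the single-gene alternatives, 4002 kept direction and side of the threshold, 273 lost the call, 28 gained one and 1 reversed, which was Orm2 at week 4 (log2 -0.06988 without week 4 replicate 2 and 5.81 without replicate 1). Where a count of calls moved by over 1.5 times the cause was not tested. At week 20 (30 genes) limma on log2(TPM + 1) called 13 (38.7% of all genes), and leaving out 1 library gave 8 to 29 (26.4% to 34.1%). At week 30 (32 genes) it called 21 (40.1% of all genes), and leaving out 1 library gave 17 to 33 (23.4% to 25.9%). On that scale the median of all genes shifted by -0.17 at week 1. For NASH against healthy Kupffer cells (3 genes) no filter gave 16 (17.2% of all genes), limma on log2(TPM + 1) 5 (26.5%) and these groups alone 5 (17.7%). For Ly6C-low cells against KN-RM (2 genes) no filter gave 4 (25.3% of all genes). For Ly6C-low against Ly6C-high cells (40 genes) leaving out 1 library gave 10 to 44.

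Replicate numbers are shared between groups, but the labels do not say that they pair samples, and no comparison with 3 or more pairs had every correlation of same-numbered samples above 0.1. In the comparisons of the sorted set, with 2 pairs each, the correlation was 0.11 to 0.49, apart from -0.07 for Ly6C-high cells against blood. Against week 0 of the time course it was 0.15 and 0.11 at week 1 and 0.005 and 0.02 at week 4. In each case 2 pairs are too few to decide. With the replicate number as a block, 27 genes were called for NASH against healthy Kupffer cells (24.3% of all genes). For Ly6C-low cells against KN-RM 6 were called (36.4% of all genes), and the other counts stayed within 1.5 times.

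As a share of TPM the 45 genes took 23.07% in DTR-positive and 23% in DTR-negative livers, 0.219% in Cre-positive and 0.2125% in Cre-negative KN-RM, 0.9032% at week 4, 0.2796% in blood and 0.4225% in healthy Kupffer cells. The median level relative to whole liver in Cre-positive KN-RM was 0.467% on counts per length, against 0.7266% on TPM. Genes more than 2-fold above their whole-liver proportion numbered 6 at week 1, 4 in NASH Kupffer cells, 5 in KN-RM and 6 in Ly6C-low cells when scaled to the median ratio in place of Alb, against 11, 8, 9 and 10, and 3 against 5 at week 20 without the livers that stood apart. The median CV was 15.53% on TPM and 15.94% without those livers, against 24.86%. Relations with Saa1 called numbered 3 over all 22 livers and 1 on log2(TPM + 1), against 30. Depth limits Saa1, Saa2 and Hamp in the sorted cells, where some groups hold a few counts.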
